A study of Mus musculus with 2 samples.

Results

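Cluster 17 is a group of 100 leukocytes of the mouse aorta, of 7613 cells in all, that carried marker transcripts of type 1 conventional dendritic cells. Its members are the cells to which the deposited cell table gives cluster number 17, and the prefix of each cell barcode names the library. The cells came from the arch and thoracic part of the aorta of Apoe-/- mice, which lack apolipoprotein E and develop atherosclerotic plaques, and their RNA was read from the 3′ end, cell by cell, in droplets. The study set out to learn what nt-LNA does to the make-up and the state of the cells in the plaque. One library came from mice given 30 mg/kg nt-LNA every week for 4 weeks and held 61 cells of cluster 17 among 4871. The other came from mice given saline and held 39 among 2742. All mice ate a western diet over the same 4 weeks, and in both libraries the live cells had been sorted for CD45, a surface protein of leukocytes, and against CD3, the signalling part of the receptor of T cells. The labels do not spell out nt-LNA (LNA usually stands for locked nucleic acid), and no source used here gives the number, age or sex of the mice. The deposited counts of unique molecular identifiers (UMIs) sum both libraries within each cluster, so gene levels below belong to the 2 libraries together and the treatments are compared only by their shares of cells.

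Type 1 conventional dendritic cells arise from bone marrow precursors under Flt3 signalling and need the transcription factors IRF8, BATF3 and ID2. They take up dead cells through receptors such as CLEC9A and load peptides from them onto MHC class I, which is known as cross-presentation and serves to prime CD8 T cells. Their receptor XCR1 binds XCL1, a chemokine made by NK cells and activated CD8 T cells. Type 2 conventional dendritic cells, plasmacytoid dendritic cells and mature dendritic cells on their way to lymph nodes carry other sets of genes and serve here for comparison.

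The deposited cell type name of cluster 17 is Macrophages, a name it shares with 8 other clusters. Among them are cluster 8, with markers of mature and of type 2 dendritic cells, and cluster 18, with markers of plasmacytoid dendritic cells. Against the mean of the other clusters, cluster 17 went against that name. Of 12 macrophage markers none was over 2-fold higher than in the mean of the other 19 clusters and 11 were over 2-fold lower, with a median log2 ratio of -2.04 that turned to 0.28 against the median instead of the mean of the other clusters. Over all 14202 genes tested in this comparison, 5.15% were over 2-fold higher and 30.1% over 2-fold lower. Adgre1, which encodes the macrophage protein F4/80, stood at 21.8 CPM (UMIs scaled to the total of the cluster) in cluster 17, against 16.1 CPM in cluster 8, 9.21 CPM (5 UMIs) in cluster 18 and 429 CPM in cluster 19, which had the highest macrophage sum. Against cluster 8, 0 of the 12 markers were higher and 4 lower, where 5.0% of all genes tested were higher and 11.8% lower. Against cluster 18, 6 of 10 tested were higher and 0 lower, where 12.2% of all genes were higher and 14.8% lower. Cluster 17 is therefore called by its number or by its leading genes. Its 1788702 UMIs came to 17887 per cell, against 1278 to 24869 in the other clusters and 9222 over all cells. Mitochondrial transcripts made up 2.75% of them (2.53% to 11.2% in the other clusters), and 12757 genes had at least 1 count. Of the 2 cell barcodes found in both libraries, 0 were in cluster 17.

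All 10 markers of type 1 dendritic cells were over 2-fold higher in cluster 17 than in the mean of the other clusters, a share to be read against the 5.15% of all genes tested. Their median log2 ratio was 4.81, against -0.51 over all genes tested, a value that was -0.30 when clusters were scaled by size factors instead of totals. The clusters were built from the same expression values, so these figures describe the cluster and no test was made. Of the 10 markers, 9 had their highest CPM of all 20 clusters in cluster 17, against 3.12% of the genes tested. For the same 9 the exact Poisson 95% interval lay above that of every other cluster, against 0.775% of genes.

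Xcr1, the receptor for XCL1, stood at 224 CPM in cluster 17 (400 UMIs, 95% Poisson interval 202 to 247). The next level was 14.1 CPM in cluster 16 and rested on 3 UMIs there (2.91 to 41.3), and 9 clusters had none. Clec9a, the receptor for actin laid bare on dead cells, stood at 163 CPM (145 to 183), followed by the 103 CPM (77.9 to 134) of cluster 18 and the 23.5 CPM, from 5 UMIs, of cluster 16. For both receptors no interval of another cluster reached that of cluster 17, and Clec9a had a second cluster at a high level where Xcr1 had none. Tlr3, an endosomal receptor of double-stranded RNA, reached 124 CPM (108 to 142), with 16.4 CPM in cluster 19 as the next level. Wdfy4, needed in mice for cross-presentation of cell-associated antigen, reached 451 CPM (420 to 483), while the B cell-named clusters 2 and 1 followed with 198 and 110 CPM. Irf8 was the single marker whose highest level lay elsewhere: it stood at 1203 CPM (1152 to 1254) here, below the 2220 CPM (2096 to 2349) of cluster 18 and the 1393 CPM (1355 to 1431) of cluster 3, deposited as NK cells. These 3 intervals do not overlap, so cluster 17 had rank 3 for Irf8.

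**Figure D1:**
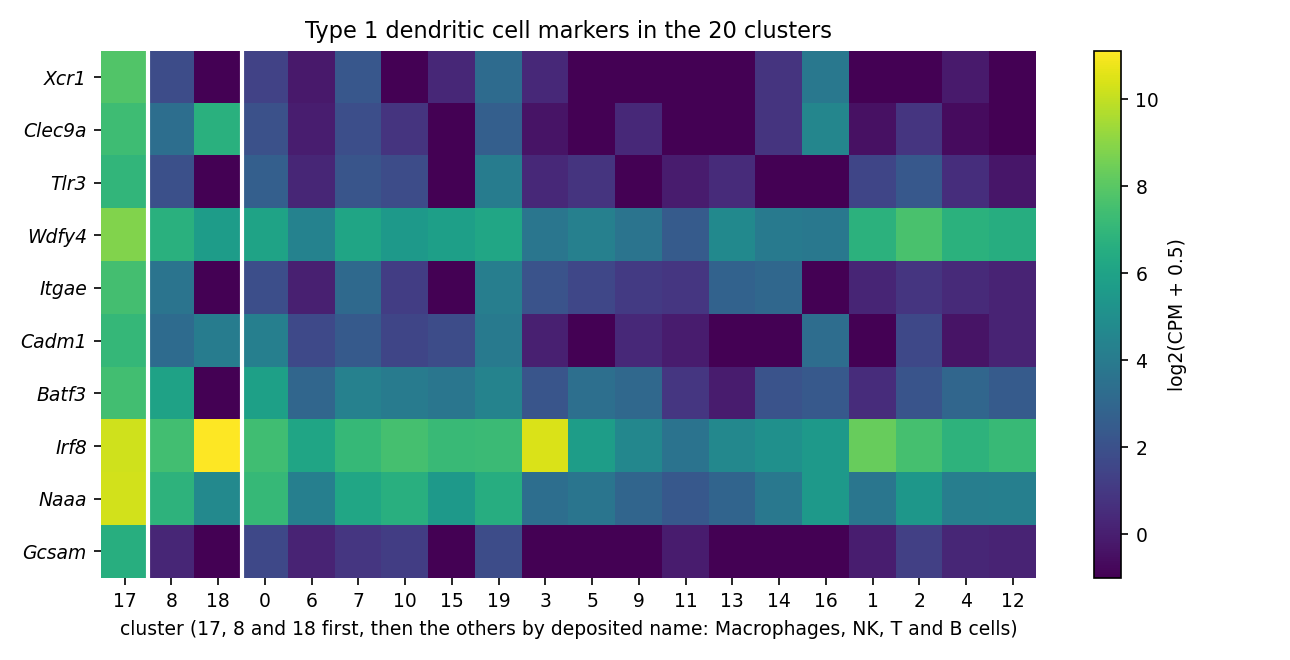
Levels of the 10 type 1 dendritic cell markers (rows) in the 20 clusters (columns), with colour for log2(CPM + 0.5). Cluster 17, at the far left, is the brightest column for 9 of the 10 genes; Irf8 is brighter in clusters 18 and 3, and Clec9a has a second bright cell in cluster 18.

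The promoters of Xcr1, Clec9a and Tlr3, which mark the cluster, and of Ifi205, an interferon-inducible gene among the leading genes of the cluster, are shown because these genes carry its identity. They come from RefSeq on GRCm38.p6, matched by symbol, and run from 250 bases before to 50 bases after the annotated start. Capitals mark matches on either strand to the core of an interferon response element, which is GAAA, any 2 bases and GAAA, to which factors of the IRF family bind.
Xcr1, chr9:123861980-123862279, minus strand: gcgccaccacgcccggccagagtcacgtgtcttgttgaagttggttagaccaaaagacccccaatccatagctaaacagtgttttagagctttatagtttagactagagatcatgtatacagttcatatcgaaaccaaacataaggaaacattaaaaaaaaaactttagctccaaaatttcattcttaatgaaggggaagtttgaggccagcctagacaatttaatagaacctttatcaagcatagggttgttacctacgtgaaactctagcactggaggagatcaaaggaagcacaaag
Clec9a, chr6:129408612-129408911, plus strand: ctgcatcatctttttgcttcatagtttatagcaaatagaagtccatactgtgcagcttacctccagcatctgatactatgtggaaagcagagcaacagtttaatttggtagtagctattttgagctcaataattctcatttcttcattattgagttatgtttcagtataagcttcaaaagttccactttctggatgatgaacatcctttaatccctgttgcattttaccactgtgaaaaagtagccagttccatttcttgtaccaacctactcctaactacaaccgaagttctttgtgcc
Tlr3, chr8:45410331-45410630, minus strand: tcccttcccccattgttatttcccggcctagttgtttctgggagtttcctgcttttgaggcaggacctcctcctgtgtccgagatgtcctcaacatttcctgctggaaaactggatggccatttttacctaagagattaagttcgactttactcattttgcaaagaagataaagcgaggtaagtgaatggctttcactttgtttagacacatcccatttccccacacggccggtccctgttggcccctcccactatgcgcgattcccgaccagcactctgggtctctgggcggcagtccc
Ifi205, chr1:174031706-174032005, minus strand: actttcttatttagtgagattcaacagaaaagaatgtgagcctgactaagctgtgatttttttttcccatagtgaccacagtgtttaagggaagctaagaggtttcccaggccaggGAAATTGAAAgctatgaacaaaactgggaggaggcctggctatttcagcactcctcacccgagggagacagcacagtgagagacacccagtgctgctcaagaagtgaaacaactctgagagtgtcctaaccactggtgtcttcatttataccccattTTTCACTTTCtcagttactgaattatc

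Ifi205 held the motif at 2 places, GAAATTGAAA starting 134 bases before the start and, on the other strand, TTTCACTTTC starting at base 24. Among the 25 leading genes of cluster 17, 16 matched the promoter table with 19 promoters, and Ifi205 was the 1 gene with a match, where 3.44% of all 32851 promoters hold one. A composite site for ETS and IRF factors, which is GGAA, any 2 bases and GAAA, was in 0 of these genes and in 2.72% of all promoters. The AP-1 site TGANTCA, which BATF3 with its JUN partners can bind, was in 1 of them, Plet1, and in 7.81% of all promoters. The motifs do not overlap in these windows, both strands were read, and a match or its lack is a description of the letters.

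The genes that led cluster 17 by ratio to the mean of the other clusters held known type 1 dendritic cell genes next to genes of other roles. Ranked among genes with at least 50 counts in the cluster, the first was Barx2, a homeobox transcription factor, at 36.9 CPM (28.5 to 46.9), 217-fold above the mean of 0.170 CPM, with no other cluster above 1.31 CPM. Gcsam, a signalling adaptor known from germinal centre B cells, reached 97.3 CPM (83.4 to 113), 128-fold above the mean. Snx22, a sorting nexin, stood 121-fold above it at 44.2 CPM, and Sept3, a septin of the cytoskeleton, 70.2-fold at 238 CPM. Itgae, the integrin chain CD103, reached 179 CPM (160 to 200), 47.9-fold above the mean, and Cadm1, an adhesion molecule, 136 CPM (120 to 155), 29.8-fold. Naaa, a lysosomal amidase that breaks down fatty acid ethanolamides, reached 1243 CPM (1192 to 1296), against 138 CPM in cluster 0 as the next. Ifi205 stood at 545 CPM (511 to 580), against 78.7 CPM in cluster 10. Each of these genes had its highest level of the 20 clusters in cluster 17.

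The ranking also held A530099J19Rik, Fam149a, Pianp, Dbn1 (drebrin, an actin-binding protein), Plet1, Ffar4 (a receptor of long-chain fatty acids), Plpp1 (a lipid phosphatase), Gatm (the first enzyme of creatine synthesis), Anpep (aminopeptidase N), Zfp366, Cystm1, Cst3, Ckb and Rab7b. Gatm stood at 186 CPM in cluster 17, against 61.6 CPM in cluster 0, and Ckb, the creatine kinase of the cytosol, at 1131 CPM (1082 to 1181), against 388 CPM in cluster 8. Both creatine genes were thus highest in cluster 17. Zfp366, a transcriptional regulator known from dendritic cells, was at 32.4 CPM (24.6 to 41.9), with 22.6 CPM in cluster 8 as the next level. Cst3, the cathepsin inhibitor cystatin C, took 2.89% of all UMIs of the cluster. Its level was 28897 CPM (28649 to 29148), 4.68-fold (4.62 to 4.75) that of cluster 8 and 16.6-fold (15.5 to 17.7) that of cluster 18. Rab7b, a small GTPase of endosomes, was the last of the 25 with a ratio of 16.7, and Tspan33 the first outside with 15.4.

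Of the 17 surface receptors listed for type 1 dendritic cells, 13 were over 2-fold higher than in the mean of the other clusters and 1, Cd8a, was over 2-fold lower. Over all genes tested the shares were 5.15% and 30.1%. Beyond Xcr1, Clec9a, Tlr3, Itgae and Cadm1, the list held Flt3, the growth factor receptor of the lineage, at 136 CPM (120 to 155), against 110 CPM in cluster 8 and 105 CPM in cluster 18, with 20.6 CPM as the mean of the other clusters. Havcr2, which encodes the checkpoint receptor TIM-3, reached 103 CPM (89.1 to 119), against 41.4 CPM in cluster 8 and 11.1 CPM in cluster 18. Cd36, a scavenger receptor, stood at 96.2 CPM, against 4.12 CPM in cluster 8 and 22.1 CPM in cluster 18, but cluster 19 was higher at 164 CPM. Tlr11, a mouse receptor for profilin of protozoa, had 39 UMIs (21.8 CPM, 15.5 to 29.8), against 1.97 CPM in cluster 8 and 0 UMIs in cluster 18 (at least 3.95-fold higher in cluster 17). Cd207, langerin, was low with 17 UMIs (9.50 CPM), and cluster 0 was higher at 53.6 CPM. Cd24a stood at 411 CPM, against 123 CPM in cluster 8 and 55.3 CPM in cluster 18.

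Cd8a marks type 1 dendritic cells of mouse lymphoid organs, where the cells carry it without Cd8b1. Here Cd8a had 92 UMIs (51.4 CPM, 41.5 to 63.1) in cluster 17, against 96.8 CPM in cluster 8, 122 CPM in cluster 18 and 1512 CPM in cluster 14. Cd8b1 was there too, with 223 UMIs. The ratio of Cd8a to Cd8b1 UMIs was 0.413 (0.320 to 0.528) in cluster 17, against 0.406 to 1.21 with a median of 0.547 in the other 19. The 10 T cell markers summed to 981 CPM in cluster 17, against 220 to 16550 CPM elsewhere. The part of free RNA or of doublets in these UMIs was not tested.

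Transcription factors set cluster 17 apart from both dendritic references. Batf3 stood at 176 CPM (157 to 197), 2.81-fold (2.41 to 3.29) that of cluster 8, a comparison with 5.0% of its 10189 genes past 2-fold upward and 11.8% past 2-fold downward. Against the 0 UMIs of Batf3 in cluster 18 it was at least 31.9-fold higher, counting 3 UMIs as the floor. There, 12.2% of 7829 genes lay past 2-fold upward and 14.8% past 2-fold downward. Id2, which holds back the E proteins that drive the plasmacytoid fate, reached 671 CPM (634 to 711), 2.83-fold (2.61 to 3.06) that of cluster 8 and 22.8-fold that of cluster 18, where it was at 29.5 CPM (16.8 to 47.9). Irf8 was 6.82-fold (6.32 to 7.36) that of cluster 8 and 0.542-fold (0.505 to 0.582) that of cluster 18. In all, 3 of the 18 factors were over 2-fold higher than in cluster 8 (Batf3, Id2 and Irf8) and 5 over 2-fold lower. Their median log2 ratio was -0.40, against -0.12 over all genes. Against cluster 18, 8 were higher and 5 lower, with a median of 0.98 against -0.13 (10 higher under size factors).

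Of the factors known from the other dendritic types, Zeb2, Irf4, Tcf4 and Spib were at lower levels in cluster 17 than in both references. Relb was lower than in cluster 8 and higher than in cluster 18 (log2 ratio 1.01). Rbpj, also on the list, was higher than in cluster 18 (log2 ratio 2.49) and within 2-fold of cluster 8 (0.73). Klf4, which is on the type 2 marker list too, was within 2-fold of cluster 8 (-0.50) and of cluster 18 (0.98). Bcl11a was within 2-fold of cluster 8 (-0.76) and lower than in cluster 18 (-2.98). Nfil3 was within 2-fold of cluster 8 (-0.23) and higher than in cluster 18 (1.65). Zeb2, which opposes Id2 and is needed for plasmacytoid cells and monocytes, stood at 25.7 CPM (18.8 to 34.3) in cluster 17, against 195 CPM in cluster 8 and 278 CPM in cluster 18, ratios of 0.132 (0.0962 to 0.178) and 0.0924 (0.0650 to 0.129). By point values cluster 17 ranked 19 of the 20 clusters for Zeb2. Irf4, a factor of type 2 dendritic cells, had 15 UMIs (8.39 CPM), against 34.2 CPM in cluster 8 and 31.3 CPM in cluster 18. Tcf4, the E protein that maintains plasmacytoid cells, was at 65.4 CPM, against 139 CPM in cluster 8 and 1251 CPM in cluster 18. Spib, also of plasmacytoid cells, was at 7.27 CPM, against 31.7 CPM and 363 CPM. Relb, an NF-kB subunit that marks mature dendritic cells, was at 19 CPM (13.2 to 26.6), against 151 CPM in cluster 8, a ratio of 0.126 (0.0868 to 0.178). Zbtb46, a factor shared by conventional dendritic cells, was at 29.6 CPM (22.2 to 38.8), 1.46-fold (1.03 to 2.04) that of cluster 8, and at 0 UMIs in cluster 18. Bcl6, a repressor, was at 63.2 CPM, against 38.9 CPM in cluster 8 and 12.9 CPM in cluster 18.

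**Figure D2:**
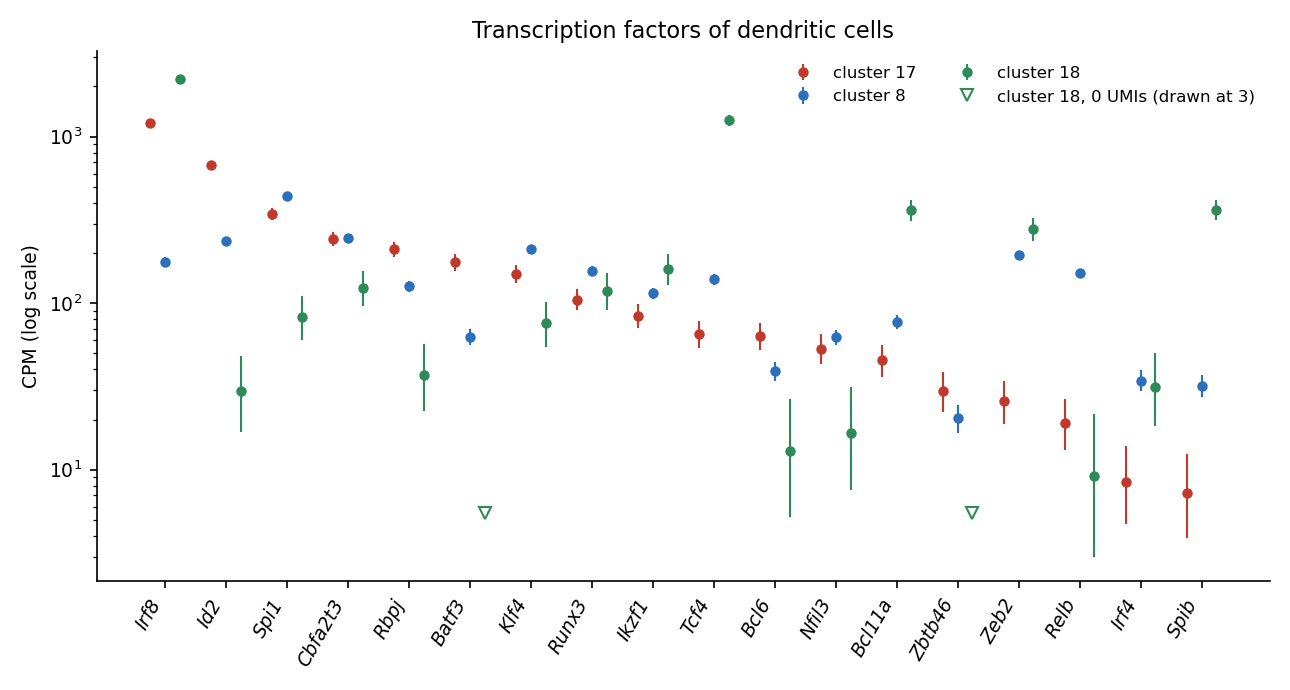
Levels of 18 transcription factors of dendritic cells in clusters 17, 8 and 18, in CPM on a log axis, with exact Poisson 95% intervals as bars and open triangles at 3 UMIs for genes with none. Irf8, Id2 and Batf3 lie above cluster 8 in cluster 17, while Zeb2, Relb, Irf4, Tcf4 and Spib lie below it.

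Genes of class I presentation went both ways. Of the immunoproteasome genes, Psmb8 and Psmb9 had their highest levels of the 20 clusters in cluster 17 and Psmb10 did not, while transcripts of the class I molecules were lower than in both references. Psmb8 and Psmb9, catalytic subunits of the immunoproteasome, reached 1097 CPM (1049 to 1147) and 614 CPM (578 to 651) in cluster 17. Cluster 8 had 764 and 279 CPM of the same genes, and cluster 18 had 696 and 337 CPM. Psmb10, the remaining catalytic subunit, was at 165 CPM (147 to 185), against 156 CPM in cluster 8 and 271 CPM in cluster 18. Psme1 and Psme2, which form the proteasome activator PA28, were at 845 and 423 CPM, against 489 and 406 CPM in cluster 8. Tap1, a subunit of the peptide transporter of the endoplasmic reticulum, stood at 222 CPM (201 to 245), against 213 CPM in cluster 2 as the next level. Pdia3, a chaperone of the peptide loading complex, was at 594 CPM (559 to 631), 1.90-fold (1.76 to 2.05) that of cluster 8. H2-K1 was at 1034 CPM in cluster 17, against 1681 CPM in cluster 8 and 2618 CPM in cluster 18. B2m, the light chain, stood at 1083 CPM, against 1622 and 2174 CPM. H2-D1 stood at 1911 CPM, against 2688 and 3382 CPM. For each of the 3 the interval of the ratio to both references lay below 1.

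Over the whole list of 25 class I and cross-presentation genes, 8 were over 2-fold higher than in the mean of the other clusters and 2 lower. In that comparison 5.15% of all genes tested were higher and 30.1% lower. The median log2 ratio of the list was -0.03, against -0.51 over all genes. Under size factors the list median was 0.29, against -0.30 over all genes. Set beside cluster 8, 3 were higher (Psmb9, Wdfy4 and Rab43) and 1 lower, and beside cluster 18, 2 were higher and 4 lower (4 and 3 under size factors). Over all genes the shares were 5.0% higher and 11.8% lower for cluster 8, and 12.2% higher and 14.8% lower for cluster 18, so the counts against cluster 18 lay near the background. The gene lower than in both was Cybb, which encodes the catalytic NADPH oxidase subunit NOX2. It stood at 50.9 CPM (41.0 to 62.5), against 323 CPM in cluster 8 and 1185 CPM in cluster 18, ratios of 0.157 (0.126 to 0.194) and 0.0429 (0.0341 to 0.0536). Rac2, a GTPase of the same oxidase, was at 225 CPM, against 316 CPM and 971 CPM.

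Class II genes summed to about the level of cluster 8. The 14 genes of the list found in the table summed to 48565 CPM in cluster 17, against 48421 CPM in cluster 8 and 11811 CPM in cluster 18. Without Cd74, the invariant chain, the sums were 26604, 26751 and 5691 CPM. H2-Ab1, a class II beta chain, was at 8824 CPM (8687 to 8962), against 8174 CPM in cluster 8. H2-DMb1, a subunit of the peptide exchange factor, was at 1198 CPM (1148 to 1250), 1.66-fold (1.58 to 1.75) that of cluster 8 and 5.81-fold (4.80 to 7.09) that of cluster 18. Ctss, the cathepsin that trims the invariant chain, was lower at 704 CPM, against 1564 CPM in cluster 8. Of the list, 0 were over 2-fold higher than in cluster 8 and 4 lower (Ctss, H2-DMb2, Lgmn and Cd1d1), while 10 of 13 tested were higher than in cluster 18 and 0 lower. All genes tested gave 5.0% higher and 11.8% lower for cluster 8, and 12.2% higher and 14.8% lower for cluster 18.

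Of the nucleic acid sensing list, which holds sensors and signalling proteins, 20 genes were tested against cluster 8. Tlr3 was the single one over 2-fold higher, with a ratio of 36.4 (22.8 to 61.7), and 4 were lower. Over all genes 5.0% were higher and 11.8% lower, so the count of higher genes lay near the background. Tlr3 was at least 22.5-fold higher than in cluster 18, which had 0 UMIs of it. Ticam1, the adaptor that TLR3 signals through, had 19 UMIs (10.6 CPM, 6.40 to 16.6) in cluster 17, against 6.81 CPM in cluster 8. Tlr7 and Tlr9, the endosomal receptors of plasmacytoid cells, had 9 and 2 UMIs. Tlr7 stood at 5.03 CPM, against 118 CPM in cluster 18, a ratio of 0.0427 (0.0187 to 0.0862). Tlr9 had under 20 counts over clusters 17 and 18 together (log2 ratio -0.53) and did not set them apart. It was within 2-fold of the mean of the other clusters (0.36). Irf5 was at 208 CPM (187 to 230), against 152 CPM in cluster 15 as the next level, and Irf7 at 73.2 CPM, against 363 CPM in cluster 18. Ddx58 (RIG-I) and Ifih1 (MDA5), sensors of RNA in the cytosol, were at 3.91 CPM and 10.6 CPM in cluster 17, against 36.4 CPM and 29.2 CPM in cluster 8.

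Receptors for dead cells and lectins also differed from cluster 8. Timd4, which binds phosphatidylserine on dead cells, had 57 UMIs (31.9 CPM, 24.1 to 41.3), 2.34-fold (1.63 to 3.34) that of cluster 8, and only cluster 19 was higher at 41.7 CPM. Axl, another such receptor, was lower at 11.2 CPM, against 43.4 CPM in cluster 8. Of 12 uptake genes tested against cluster 8, 4 were higher (Clec9a, Timd4, Havcr2 and Cd36) and 5 lower. In that comparison 5.0% of all genes were higher and 11.8% lower. Clec12a, a lectin that binds uric acid crystals, was at 187 CPM (168 to 208), 2.93-fold (2.52 to 3.42) that of cluster 8 and 0.480-fold (0.403 to 0.572) that of cluster 18. Of the 13 lectins tested, 9 were over 2-fold lower than in cluster 8 and 2 higher, with a median log2 ratio of -2.91. They include Cd209a at 6.15 CPM, against 495 CPM in cluster 8, Mgl2 at 10.6 CPM, against 292 CPM, and Clec10a at 9.50 CPM, against 263 CPM, all lectins of type 2 dendritic cells.

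Of 13 chemokine and egress receptors tested, 2 were over 2-fold higher in cluster 17 than in cluster 8 and 6 were lower. All genes tested gave 5.0% higher and 11.8% lower. The higher receptors were Xcr1, at 73.4-fold (45.2 to 127), and Cxcr3, a receptor of interferon-induced chemokines, at 73.8 CPM (61.7 to 87.5), 17.1-fold (11.0 to 27.7). Cxcr3 was near the 81.1 CPM of cluster 18, with a ratio of 0.910 (0.643 to 1.31). Ccr7, which guides mature dendritic cells to lymph nodes, stood at 31.3 CPM (23.6 to 40.7), against 442 CPM in cluster 8, a ratio of 0.0708 (0.0533 to 0.0922). S1pr1, a receptor for exit from tissue, was at 10.6 CPM (6.40 to 16.6), against the 29.0 CPM of cluster 8 and the 12.9 CPM (5.18 to 26.6) of cluster 18, whose interval overlaps. Cxcr4 was at 94.5 CPM (80.8 to 110), against 178 and 181 CPM. Xcl1, the ligand of XCR1, had 4 UMIs in cluster 17 (2.24 CPM), against 832 CPM in cluster 3.

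The 16 cytokine genes of the list summed to 931 CPM in cluster 17, against 2010 CPM in cluster 8 and 479 CPM in cluster 18. Of those tested, 1 of 11 was over 2-fold higher than in cluster 8 and 3 lower, and 4 of 5 were higher than in cluster 18 and 0 lower. The shares over all genes were 5.0% higher and 11.8% lower for cluster 8, and 12.2% higher and 14.8% lower for cluster 18. Il12b, a subunit of interleukin 12, had 57 UMIs (31.9 CPM, 24.1 to 41.3), against 37.7 CPM in cluster 8, a ratio of 0.846 (0.620 to 1.14), and 2.08 CPM in the mean of the other clusters. Il12a, the other subunit, had 4 UMIs. Il18 reached its highest level in cluster 17, with 65.4 CPM (54.1 to 78.4), 5.79-fold (4.23 to 8.0) that of cluster 8. Il1b was at 643 CPM, against 1637 CPM in cluster 8, 195 CPM in cluster 18 and 3659 CPM in cluster 7, which carries neutrophil genes. Il27 and Ifnb1 had 0 UMIs, which allows up to 1.68 CPM at 3 UMIs. Of the chemokines, Ccl17 stood at 202 CPM (182 to 224), close to the 223 CPM of cluster 8 (ratio 0.907, 0.805 to 1.02), while Ccl22 was at 10.1 CPM, against 106 CPM. Cxcl9 and Cxcl10 were at 8.95 and 2.24 CPM, against 83.0 and 73.9 CPM in cluster 8. Of the 13 chemokines tested, 0 were over 2-fold higher than in cluster 8 and 8 were lower. Beside cluster 18 the direction was the other, with 6 of 9 higher and 3 lower (median log2 ratio 1.93). Ccl2 lay at the threshold, with 98.4 CPM in cluster 17, against 49.0 CPM in cluster 8, but passed it under size factors.

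Markers of the mature state were low in cluster 17. All 14 were over 2-fold lower than in cluster 8, with a median log2 ratio of -3.50 (-3.60 with Nudt17, at 0 UMIs, set to its bound), and they summed to 223 CPM, against 2416 CPM in cluster 8 and 492 CPM in cluster 18. By point values this was the lowest sum of the 20 clusters, with 248 CPM in cluster 9 as the next. Fscn1, an actin-bundling protein of mature dendritic cells, had 5 UMIs (2.80 CPM), against 230 CPM in cluster 8, a ratio of 0.0122 (0.00394 to 0.0284). Nudt17 had 0 UMIs in cluster 17, which allows up to 1.68 CPM, and 33.5 CPM in cluster 8. Against cluster 18 the mature list had no common direction, with 3 of 7 tested higher and 3 lower (median log2 ratio 0.23). Costimulatory and checkpoint genes were lower than in cluster 8 for 9 of 13 and higher for 1, Havcr2, whereas against cluster 18 5 of 10 were higher and 1 lower (median 0.93). The shares over all genes were 5.0% higher and 11.8% lower for cluster 8, and 12.2% higher and 14.8% lower for cluster 18. Cd40 was at 10.6 CPM, Cd80 at 9.50 CPM and Cd274, the ligand PD-L1, at 10.6 CPM, against 61.1, 49.5 and 70.6 CPM in cluster 8. Cd86 and Cd83 were nearer to it, at 131 and 335 CPM, against 156 and 413 CPM, and cluster 18 had 7.37 and 36.8 CPM. Cluster 8 had the highest mature marker sum of the 20 clusters. Its type 2 marker sum was the highest too, at 1912 CPM, against 1251 CPM in cluster 18 as the next.

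**Figure D3:**
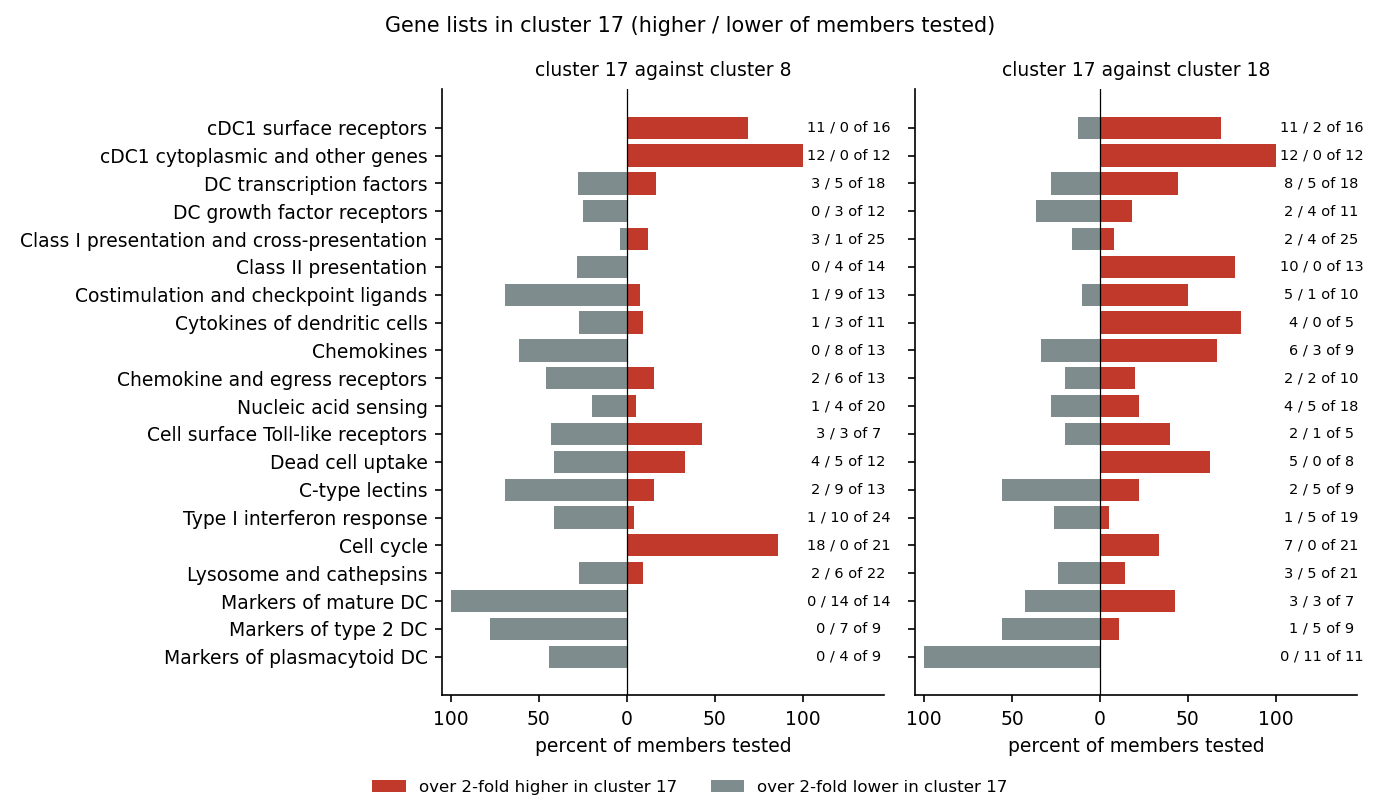
Percent of the members tested of each gene list that were over 2-fold higher (right) or lower (left) in cluster 17 than in cluster 8 (left panel) and cluster 18 (right panel), with the counts beside each bar. The 12 cytoplasmic genes of type 1 dendritic cells were higher against both, the 14 mature markers were lower than in cluster 8 and the 11 plasmacytoid markers lower than in cluster 18. The lists were chosen with earlier results of these data known.

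Genes of the 3 type 1 lists were set against both references. The lists were chosen with earlier results of these data known, and most of the markers are also on the surface or the cytoplasmic list. Naaa, Rab7b, Snx22, Ifi205, Gcsam, Sept3, Cst3, Plpp1 and Ckb of the cytoplasmic list are also among the leading genes of cluster 17. The counts below therefore describe the cluster and lend no separate support to its name. Over all genes tested, 5.0% were higher and 11.8% lower than in cluster 8, and 12.2% higher and 14.8% lower than in cluster 18. All 10 markers were over 2-fold higher in cluster 17 than in cluster 8, with a median log2 ratio of 3.84, and 8 of the 10 were higher than in cluster 18, with a median of 6.59 (4.31 with genes at 0 UMIs there at their bound). Clec9a, at 1.58-fold (1.19 to 2.15), and Irf8 were the 2 within 2-fold of cluster 18. All 12 cytoplasmic and other genes of type 1 cells were higher than in either reference. Of 16 surface receptors tested, 11 were higher than in cluster 8 and 5 within 2-fold. Against cluster 18, 11 of 16 were higher, 3 within 2-fold (Flt3, Itgax and Clec9a) and 2 lower. The lower ones were Cd8a and Tlr12, a receptor for profilin like TLR11, with 15 UMIs (8.39 CPM, 4.69 to 13.8) in cluster 17, against 35.0 CPM (21.1 to 54.7) in cluster 18. Of 12 growth factor receptors, 0 were higher than in cluster 8 and 3 lower (1 and 2 under size factors), among them Csf1r, the receptor of the macrophage growth factor, at 22.9 CPM, against 84.6 CPM in cluster 8.

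Markers of the neighbouring dendritic types were likewise at low levels. Of 9 type 2 markers tested against cluster 8, 7 were over 2-fold lower and 0 higher, with Ccl17 and Klf4 within 2-fold. The share of all genes lower was 11.8% for cluster 8 and 14.8% for cluster 18. Sirpa, an inhibitory receptor, was at 17.3 CPM (11.8 to 24.6), against 132 CPM in cluster 8, and Itgam, the integrin CD11b, at 17.9 CPM (12.2 to 25.3), against 125 CPM. All 11 plasmacytoid markers were over 2-fold lower than in cluster 18, with a median log2 ratio of -5.77 (-5.89 with Klk1 at its bound), and they summed to 700 CPM, against 16076 CPM. Siglech, their lectin, was at 8.95 CPM, against 2200 CPM, and Klk1 had 0 UMIs, against 910 CPM, at least 543-fold lower in cluster 17. Among the 9 clusters deposited as Macrophages, the expression profile of cluster 17 correlated most with that of cluster 8 (Spearman 0.938 over 14202 genes) and with cluster 0 (0.922), and cluster 18 stood at 0.868. The points are genes of clusters with unequal depth that share libraries, so these values only describe the order.

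Genes of the cell cycle were more abundant than in cluster 8. Of 21 tested, 18 were over 2-fold higher in cluster 17 and 0 lower, with a median log2 ratio of 1.72, against -0.12 over all genes. Cdk1, the kinase of mitosis, had 65 UMIs (36.3 CPM, 28 to 46.3), 10.1-fold (6.06 to 17.7) that of cluster 8, and Ube2c, a ubiquitin enzyme of mitotic exit, was at 80.5 CPM, 7.36-fold (5.42 to 10.1). Mki67 stood at 95.6 CPM (81.8 to 111), 2.78-fold (2.25 to 3.43) that of cluster 8 and 1.57-fold (1.08 to 2.36) that of cluster 18, but cluster 14 had 2758 CPM. Against cluster 18, 7 were higher and 0 lower. The share of all genes higher was 5.0% for cluster 8 and 12.2% for cluster 18. Without H2afz, a histone variant with 2133 CPM in cluster 17, the other 21 genes of the list summed to 1238 CPM there, against 393 CPM for cluster 8, 763 CPM for cluster 18 and 8908 CPM for cluster 6, the highest. Whether a few of the 100 cells or many held these transcripts cannot be told from summed counts.

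Genes of the type I interferon list leaned the other way beside clusters 8 and 18, but lay near the background beside the mean of the other clusters. Against that mean 8 of 24 were over 2-fold lower and 2 higher, where 30.1% of all genes were lower and 5.15% higher. The median log2 ratio there was -0.61, against -0.51 over all genes. Beside cluster 8, 10 of the 24 were over 2-fold lower and 1, Ifi44, was higher, with a median log2 ratio of -0.83. Over all genes tested against cluster 8, 11.8% were lower and 5.0% higher, with a median of -0.12. Against cluster 18, 5 of 19 were lower and 1 higher, where 14.8% of all genes were lower and 12.2% higher. Ifi205, interferon-inducible but not on this list, was at 545 CPM, against 45.7 CPM in cluster 8 and 0 UMIs in cluster 18. Ifitm3 was at 726 CPM (687 to 766), against 2009 CPM in cluster 8 and 184 CPM in cluster 18. Ifit1 had 0 UMIs, against 25.1 CPM in cluster 8. Mx1, at 20.1 CPM, was close to the 21.2 CPM of cluster 8. Among lysosomal genes, 2 of 22 were higher than in cluster 8 and 6 lower, beside the same shares of 5.0% and 11.8% over all genes. The higher ones were Ppt1, a palmitoyl thioesterase with its highest level in cluster 17, at 671 CPM (634 to 711), 8.21-fold (7.37 to 9.17), and Psap, the precursor of saposins, at 2992 CPM (2912 to 3073), 3.56-fold (3.43 to 3.71). Ctsl was at 29.1 CPM, against 52.4 CPM in cluster 8 and 1654 CPM in cluster 18.

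Markers of other leukocytes gave sums within the range of the remaining clusters. Macrophage markers summed to 1542 CPM in cluster 17, against 78.4 to 40177 CPM elsewhere, classical monocyte markers to 977 CPM (207 to 5706), neutrophil markers to 238 CPM (63.5 to 106185), NK cell markers to 236 CPM (36.6 to 20914) and B cell markers to 735 CPM (542 to 20850). Vessel wall markers summed to 19.6 CPM, by point value below the 22.7 to 570 CPM of the other clusters, with Myh11, Cnn1, Acta2 and Col1a1 at 0 UMIs. Lyz2, lysozyme, was at 1087 CPM, against 849 CPM in cluster 8 and 29101 CPM in cluster 19. The part of free RNA and doublets in these levels was not tested.

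**Figure D4:**
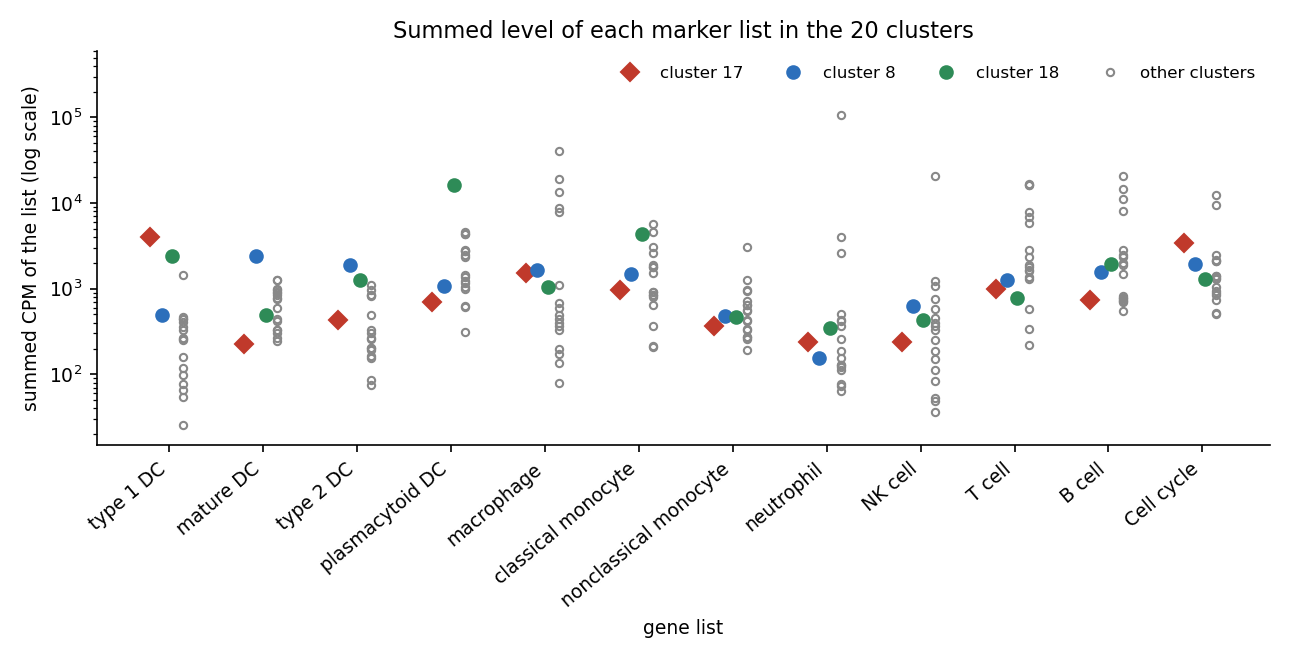
Summed CPM, on a log axis, of 11 marker lists and the cell cycle list in the 20 clusters, with cluster 17 as a red diamond, clusters 8 and 18 filled and the others open. Cluster 17 has the highest sum for type 1 markers, 3996 CPM, and, by point value, the lowest for mature markers, 223 CPM.

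The share of cluster 17 did not differ between the 2 libraries beyond counting error. It held 1.25% of the nt-LNA library (61 of 4871 cells, exact 95% interval 0.959 to 1.61) and 1.42% of the saline library (39 of 2742, 1.01 to 1.94), a ratio of 0.880 (0.580 to 1.35). The direction turned with the denominator. Among the clusters deposited as Macrophages it held 3.82% of nt-LNA cells and 3.08% of saline cells, a ratio of 1.24 (0.816 to 1.90). Among the 3 dendritic clusters it held 21.1% (16.5 to 26.3) of 289 nt-LNA cells and 15.9% (11.6 to 21.1) of 245 saline cells, a ratio of 1.33 (0.873 to 2.04). Without clusters 2, 5, 14 and 16, which had few UMIs per cell, the shares were 1.68% and 1.63%, a ratio of 1.03 (0.679 to 1.58). Each of these intervals includes 1 and allows a ratio from about 0.580 to 2.04.

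Cluster 8 held 3.88% of nt-LNA cells and 6.78% of saline cells, a ratio of 0.572 (0.465 to 0.704). This ratio too moved with the denominator. Among the cells of clusters 8, 17 and 18, cluster 8 held 65.4% in nt-LNA and 75.9% in saline, a ratio of 0.861 (0.700 to 1.06). Cluster 18 held 0.801% of all nt-LNA cells (39 cells) and 0.729% of all saline cells (20 cells), a ratio of 1.10 (0.625 to 1.99). Clusters 8, 17 and 18 together made up 5.93% (5.29 to 6.63) of the nt-LNA library and 8.94% (7.89 to 10.1) of the saline library, a ratio of 0.664 (0.558 to 0.790), which lay below that of cluster 17 alone. The difference between these ratios was not tested. With 1 library per treatment the intervals cover counting error only, and an effect of nt-LNA and a difference between the 2 libraries cannot be told apart.

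**Figure D5:**
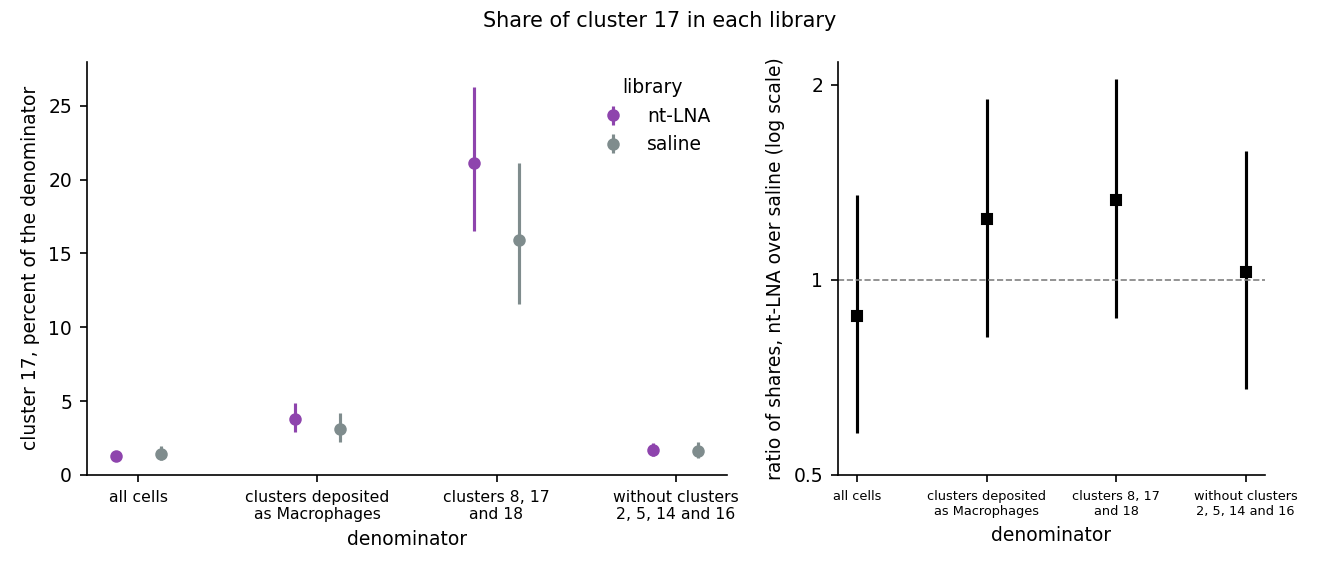
Cluster 17 as a percent of 4 denominators in the nt-LNA and saline libraries (left, exact 95% intervals) and the ratio of nt-LNA to saline shares (right, log axis, exact conditional 95% intervals, dashed line at 1). The ratio lies between 0.880 and 1.33, and all 4 intervals cross 1.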

How the data were processed

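Live CD45+/CD3- cells of 1 nt-LNA and 1 saline library were sequenced on the 10x Chromium system, per the labels. The submitters' processing notes name Cell Ranger 2.1.1, Seurat and mm9. The authors deposited raw UMI counts summed per cluster for 31053 genes, 19560 of them with a count, and a table of clustered cells, both used as deposited. Counts were scaled to CPM with exact Poisson 95% intervals. Ratios of counts and of shares have exact conditional intervals, and shares exact Clopper-Pearson intervals, all of which cover counting error only. A gene was called past 2-fold on log2(CPM + 0.5), which understates low genes, among genes with at least 20 counts over the clusters compared. Folds against 0 UMIs used a floor of 3 counts. The upper end of the exact 95% interval for 0 UMIs lies above that floor, so folds given as at least a value hold at the floor only. With counts pooled over both libraries and 1 library per treatment there was no test.

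The members and the 33 gene lists were chosen with earlier results of these data known. Genes could be named if they were on a list or among the 25 highest ratios to the mean of the other clusters (at least 50 counts). The 10 lowest, and the 10 highest and lowest against clusters 8 and 18, could be named too. Not every such gene is named above. Of 382 list members 379 were in the table. No doublet caller was run, since none works on counts summed per cluster. The calculation was tested on simulated data. Promoters came from RefSeq on GRCm38.p6, matched by symbol. The sources do not state whether counting used strand, and reads of near-identical or overlapping genes, such as the class I, class II and Ifi200 families, may be split or shared. Alternatives were the count minimum, scaling, pseudocount, reference clusters and denominators. Intervals came from scipy 1.17.1 and figures from matplotlib 3.10.9, on Python 3.11.15 with pandas 2.3.3 and numpy 2.4.6.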

Additional observations from a re-analysis of the deposited data

How the results depend on the processing

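The ratio of nt-LNA to saline shares of cluster 17 ran from 0.880 to 1.33 over the denominators tried, and its direction turned as given above. The counting interval of 0.580 to 1.35 belongs to the ratio over all cells. Each other denominator has an interval of its own, reaching up to 2.04. The shares themselves scale with the denominator. Counts of genes past 2-fold depended on the settings. With a pseudocount of 5 CPM, 442 genes were higher and 1571 lower than the mean of the other clusters, 312 higher and 615 lower than cluster 8. Against the median of the other clusters, 1649 were higher and 1905 lower. With at least 50 counts, 332 were higher than in cluster 8, and 576 were higher and 638 lower than in cluster 18. With at least 1 count, 1234 were higher and 2205 lower than in cluster 8, and 3201 higher and 2822 lower than in cluster 18. Size factors put 714 genes highest in cluster 17, 168 of them with an interval above all others. Against the median of the other clusters, 4 list medians turned positive, to 0.55 for C-type lectins, 0.28 for macrophage, 0.19 for nonclassical monocyte and 0.27 for NK cell markers, and the cause was not tested. No paired analysis was possible because each treatment had 1 library. Cluster 18, with 542811 UMIs, limits what 0 UMIs can show to 5.53 CPM.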
